A study of Mus musculus with 6 samples.

Results

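The metallothioneins Mt1, Mt2 and Mt3 and the zinc exporter Slc30a1 were followed in bulk RNA sequencing of mouse optic nerves after optic nerve crush (ON-CR). These 4 genes were taken by their symbols from a table of 25755 genes, and all 4 had a row. The mice were all Nf1flox/flox; hGFAP-Cre, in which the human GFAP promoter drives Cre and Nf1 is thereby lost from neuroglial progenitors and the cells derived from them, so the sham controls carried the same Nf1 loss. At 6 weeks of age, 3 mice (mice 4 to 6) received bilateral ON-CR and 3 (mice 1 to 3) a sham operation, in which the incision was made but the nerve was not crushed. Whole optic nerves were taken from perfused mice at 12 weeks of age (3 months in the sample labels), and the sample labels give 1 mouse number per library. The study's methods describe 2 mice per sample for the RNA used in PCR, and whether the sequenced libraries were pooled in the same way is not given in the sources used here, so n counts libraries and a mouse number names a library. Values per library are given in the order of mice 1, 2 and 3 (sham) and mice 4, 5 and 6 (ON-CR).

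Metallothioneins are small, cysteine-rich proteins that bind zinc and copper ions. Mt1 and Mt2 are induced in many cell types by metals, glucocorticoids and cytokines, and astrocytes are a known source of both in the brain and optic nerve, while Mt3 is the form known mainly from the nervous system. Slc30a1 (ZnT1) moves zinc out of the cell across the plasma membrane. The zinc-sensing transcription factor Mtf1 binds metal response elements (MREs) near the starts of Mt1, Mt2 and Slc30a1, which are classic zinc-induced genes.

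The 3 metallothionein genes with a row lie in 1 cluster on chromosome 8 (GRCm38, the assembly also called mm10), all on the plus strand, in the order Mt3, Mt2, Mt1. Mt3 (ENSMUSG00000031760.9) spans chr8:94152607-94154146, Mt2 (ENSMUSG00000031762.7) spans chr8:94172664-94173568 and Mt1 (ENSMUSG00000031765.8) spans chr8:94179082-94180327. The gap between Mt3 and Mt2 is 18.5 kb, and that between Mt2 and Mt1 is 5.51 kb. Each has 3 exons and a short messenger RNA, of 536 bases for Mt3, 511 for Mt2 and 549 for Mt1. Mt4, the remaining gene of the cluster, was not analysed here. Slc30a1 (ENSMUSG00000037434.7) lies on chromosome 1, at chr1:191906767-191913247 on the plus strand, with 2 exons and a transcript of 5244 bases.

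The 250 bases that precede each RefSeq start (GRCm38.p6) are shown because the MRE is the element through which Mt1, Mt2 and Slc30a1 are known to answer zinc, with Mt3 beside them as the remaining member of the cluster in the table. Matches to the MRE core, searched as TGCACNC or TGCGCNC on both strands, are in capitals, and all 4 sequences read 5′ to 3′ on the plus strand. The windows are chr8:94178839-94179088 for Mt1, chr8:94172368-94172617 for Mt2, chr8:94152357-94152606 for Mt3 and chr1:191906531-191906780 for Slc30a1.
Mt1: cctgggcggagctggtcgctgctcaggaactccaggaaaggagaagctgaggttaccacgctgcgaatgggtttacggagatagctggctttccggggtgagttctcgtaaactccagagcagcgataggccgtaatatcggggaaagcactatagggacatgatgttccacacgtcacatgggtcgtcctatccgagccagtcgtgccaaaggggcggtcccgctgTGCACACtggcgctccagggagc
Mt2: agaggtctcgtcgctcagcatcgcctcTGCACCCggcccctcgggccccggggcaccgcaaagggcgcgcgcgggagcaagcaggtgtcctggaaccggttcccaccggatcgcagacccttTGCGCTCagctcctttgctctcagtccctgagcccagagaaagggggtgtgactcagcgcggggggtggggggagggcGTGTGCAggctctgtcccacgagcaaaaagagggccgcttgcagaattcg
Mt3: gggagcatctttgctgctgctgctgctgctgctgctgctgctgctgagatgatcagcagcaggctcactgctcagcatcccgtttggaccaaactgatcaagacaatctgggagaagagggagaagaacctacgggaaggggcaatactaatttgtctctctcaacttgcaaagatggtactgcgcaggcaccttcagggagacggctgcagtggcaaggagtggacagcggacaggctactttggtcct
Slc30a1: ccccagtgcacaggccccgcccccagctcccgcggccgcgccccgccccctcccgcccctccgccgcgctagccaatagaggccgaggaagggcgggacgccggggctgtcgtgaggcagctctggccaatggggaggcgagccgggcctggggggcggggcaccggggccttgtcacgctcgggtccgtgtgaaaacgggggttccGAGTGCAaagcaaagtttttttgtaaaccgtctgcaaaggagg

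The Mt2 window held 3 MRE matches, Mt1 and Slc30a1 held 1 each, and Mt3 held 0. Among 32851 RefSeq windows of this length, 21.4% held at least 1 match and 1.26% held at least 3. In Mt1 the match lay 23 to 17 bases before the start, and in Slc30a1 it lay 43 to 37 bases before it, on the minus strand. The 3 of Mt2 lay 223 to 217, 128 to 122 and 50 to 44 bases before the start, the last of them on the minus strand. The annotations place the starts differently, however. The GENCODE transcripts of Mt1 start 7 bases before to 152 bases after the RefSeq start, and those of Mt2 start 46 and 242 bases after it. In the first 200 bases of the principal GENCODE transcript, the same letters occurred 4 times in Mt1, 3 times in Mt2, 3 times in Mt3 and 1 time in Slc30a1. Of 24924 transcripts of at least that length, 0.140% held 4 or more, 0.746% held 3 or more and 20.6% held 1 or more.

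The antioxidant response core TGACNNNGC, searched like the rest on both strands, occurred 1 time each in the Mt2 and Slc30a1 windows, and at least 1 time in 10.2% of all windows. The STAT core TTCNNNGAA occurred in none of the 4 windows and in 7.02% of all windows, and the TATA box letters TATAAA in none of the 4 and in 12.4% of all. The GC box GGGCGG occurred 5 times in Slc30a1 and 2 times in Mt1. Of all windows, 1.93% held it 5 or more times, 16.7% 2 or more times and 32.7% at least 1 time. Unlike the MRE, these elements were not searched after the RefSeq starts, where some GENCODE transcripts of Mt1 and Mt2 begin. Their absence therefore covers only these windows. No match in these 4 windows overlapped a match of another element, and a match is a description of letters, not of binding.

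The values are normalized signals, that is, estimated read counts that the authors divided by 1 factor per library. Depth was 19892892 to 23621006 estimated reads in sham and 17414091 to 18978379 in ON-CR mice. Some libraries stood apart. Bpifa1, a secreted airway protein, was at 7568 in sham mouse 3 and at 4579 and 5894 in ON-CR mice 5 and 6, but at 0 to 22.3 in the other 3 mice, and the immunoglobulin gene Igkc reached 83710 in ON-CR mouse 6 against 48.2 to 1602 elsewhere. The summed signal of 10 neuron markers was 10832 in ON-CR mouse 5, against 1929 to 5304 in sham and 1957 and 3213 in the other ON-CR libraries, and without ON-CR mouse 5 the log2 fold changes of ON-CR over sham were 1.02 for Mt1, 1.25 for Mt2, 0.34 for Mt3 and 0.08 for Slc30a1. The X-linked Xist was at 2.14 to 30.9 in sham and 2708 to 6357 in ON-CR mice, while the Y-linked Ddx3y was at 1291 to 1645 in sham mice and at 976, 4.19 and 0 in the ON-CR group. ON-CR mouse 4 therefore held both transcripts, and the difference in sex-linked transcripts and the surgery cannot be told apart. Blood transcripts were present in all libraries. The summed signal of 5 erythroid markers was 269397 to 509290 in sham and 136974 to 378023 in ON-CR libraries. The 4 genes are given below with and without the libraries high in Bpifa1. Nf1 itself was at 385 ± 55.1 (SD, n = 3) in sham and 411 ± 29.3 (SD, n = 3) in ON-CR nerves.

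Mt1 and Mt2 rose after ON-CR, Mt3 was slightly higher without passing the test, and Slc30a1 was at the same mean in both groups. A gene was called where its limma p, adjusted over the whole table, was at or under 0.05, and 540 of 25755 genes (2.1%) were, 250 of them higher in ON-CR (0.971%) and 290 lower. An unadjusted p at or under 0.05 was found for 4016 genes (15.6%). Of the 4 genes, 2 were called, both higher. Every ON-CR library lay above every sham library for 3 of the 4, and the same held for 2717 of all genes (10.5%).

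Mt1 was at 19930, 21440 and 16128 in the sham group and at 34826, 41632 and 42849 in the ON-CR group. The groups were well apart, with the lowest ON-CR value 1.62 times the highest sham value. The mean rose from 19166 ± 2737 (SD, n = 3) to 39769 ± 4324 (SD, n = 3), a log2 fold change of 1.06 (SE 0.14, limma adjusted p = 0.00604), or 2.08-fold with a 95% interval from 1.67 to 2.60. By p-value Mt1 ranked 100 of all genes, and only 6 genes of the table gained more signal in absolute terms than its 20603. In bulk tissue, more cells of a type and more RNA per cell cannot be told apart.

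Mt2 was at 2778, 2919 and 2504 in the sham group and at 5344, 7389 and 7887 in the ON-CR group. All 3 sham mice were close together, whereas ON-CR mouse 4 was lower than the other two crushed mice but still 1.83 times the highest sham value. The mean rose from 2734 ± 211 (SD, n = 3) to 6873 ± 1348 (SD, n = 3), a log2 fold change of 1.31 (SE 0.15, limma adjusted p = 0.00297), or 2.48-fold with a 95% interval from 1.97 to 3.13. Mt2 ranked 43 by p-value. An antisense gene, Gm45774, overlaps Mt2 by 749 bases, and 45.5% of the 50-base words of the Mt2 transcript also occur in it on 1 strand or the other, so reads there could have been split or shared, and whether the counting used strand is not given in the sources used here. Its own signal was 69.3 ± 2.33 (SD, n = 3) in sham and 137 ± 25.8 (SD, n = 3) in ON-CR nerves (limma adjusted p = 0.0576), that is, between 1.64% and 2.83% of the Mt2 signal in each library.

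Mt3 was at 9013, 8754 and 6764 in the sham group and at 9643, 10575 and 10979 in the ON-CR group. The groups did not overlap, but the lowest ON-CR value was only 1.07 times the highest sham value, and sham mouse 3 was lower than the other two sham mice. The means were 8177 ± 1231 (SD, n = 3) and 10399 ± 685 (SD, n = 3), with a log2 fold change of 0.36 (SE 0.13, 95% interval 0.06 to 0.65, limma adjusted p = 0.223). Mt3 therefore did not pass the test.

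Slc30a1 was at 236, 266 and 239 in the sham group and at 236, 215 and 290 in the ON-CR group. Both the lowest and the highest value were from crushed mice, so the ON-CR range enclosed the sham range. The means were 247.2 ± 16.8 (SD, n = 3) and 247.0 ± 38.5 (SD, n = 3), with a log2 fold change of -0.01 (SE 0.17, limma adjusted p = 0.985). The 95% interval of the fold ran from 0.77 to 1.29. The antisense gene 1700034H15Rik overlaps Slc30a1 by 761 bases and shares 8.08% of its 50-base words.

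**Figure D1:**
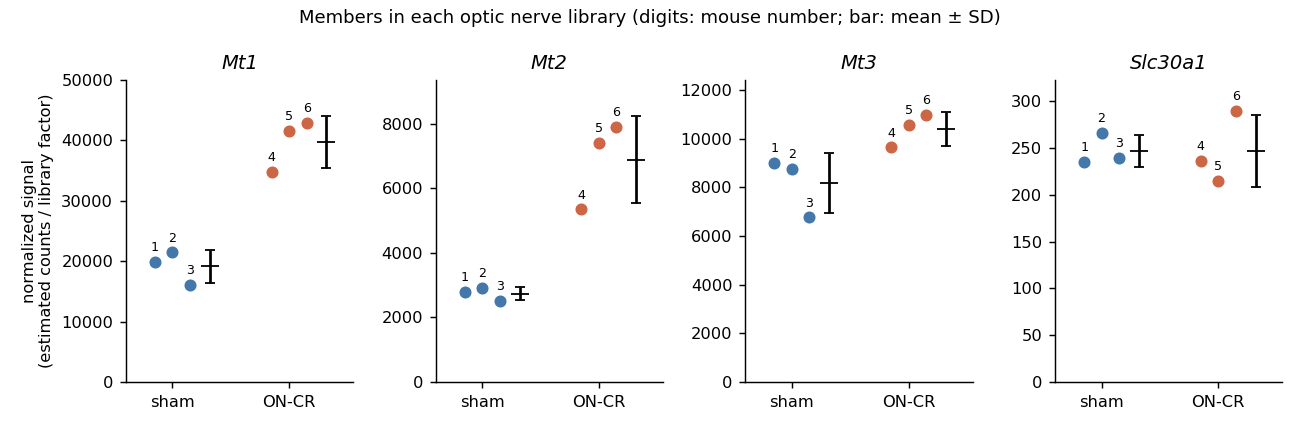
Normalized signal (estimated counts divided by a library factor, linear axes from 0) of Mt1, Mt2, Mt3 and Slc30a1 in the 3 sham and 3 ON-CR optic nerve libraries, each point a mouse with its number, with the group mean ± SD beside the points. Mt1 and Mt2 separate widely, Mt3 separates narrowly (10575 and 10979 in ON-CR mice 5 and 6 against 6764 in sham mouse 3), and the Slc30a1 groups overlap.

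The split by Bpifa1 left 1 library on one side of each comparison, so the values within each set are given as a description. In the 3 libraries low in Bpifa1, Mt1 was 1.68-fold and Mt2 1.88-fold higher in the 1 ON-CR mouse than in the 2 sham mice. In the 3 libraries high in it, Mt1 was 2.62-fold and Mt2 3.05-fold higher in the 2 ON-CR mice than in the 1 sham mouse. Mt3 was 1.09-fold higher within the first set and 1.59-fold within the second, and Slc30a1 0.943-fold and 1.04-fold. The part of Bpifa1 in these differences was not tested. With the low libraries alone limma called 0 of 25320 genes, while 2357 had an unadjusted p at or under 0.05, and the adjusted p was 0.443 for Mt1 and 0.414 for Mt2.

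Per length, the metallothioneins were among the most abundant messages of the nerve. Mt1 was at 34911 ± 4986 (SD, n = 3) signal per kb of transcript in sham and 72439 ± 7875 (SD, n = 3) in ON-CR nerves, which moved it from rank 39 to rank 23 among 25072 genes with a length. On the same scale Gfap, the intermediate filament of astrocytes, was at 43377 in sham and 67689 in ON-CR nerves, so Mt1 was below it in the sham mean and above it in the ON-CR mean. Mt3 was at 15256 ± 2296 per kb in sham (SD, n = 3, rank 72) and 19401 ± 1278 in ON-CR nerves (SD, n = 3, rank 60). Mt2 was at 5350 ± 413 per kb in sham (SD, n = 3, rank 229) and 13451 ± 2638 in ON-CR nerves (SD, n = 3, rank 87). The order Mt1, Mt3, Mt2 held in each of the 6 libraries, and no neighbours in it overlapped within a group. Slc30a1 was far lower, at 47.1 ± 3.21 and 47.1 ± 7.35 signal per kb (SD, n = 3 each). Among the 3122 genes with a mean signal of at least 1000, 55 were called higher and 156 lower, and 31 had a greater log2 fold change than Mt1, 19 than Mt2 and 210 than Mt3.

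Summed, Mt1, Mt2 and Mt3 took 0.131% to 0.158% of all signal in sham libraries and 0.263% to 0.326% in ON-CR libraries. All signal was itself lower in ON-CR (1.83e+07 to 1.89e+07) than in sham libraries (1.93e+07 to 2.11e+07), which adds to the rise in share. The metallothionein sum was 25396 to 33113 in sham and 49813 to 61715 in ON-CR libraries. The composition of this sum shifted. Mt1 made up 62.8% to 64.7% of it in sham and 69.4% to 69.9% in ON-CR libraries, and Mt2 8.76% to 9.86% and 10.7% to 12.8%. Mt3 made up 26.4% to 28.4% in sham and 17.7% to 19.4% in ON-CR libraries, so none of the 3 shares overlapped between the groups. The shares are parts of the same sum, so they do not vary independently.

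Ratios within a library do not depend on how libraries were scaled. Mt1 per Mt3 was 2.211, 2.449 and 2.384 in the sham group and 3.612, 3.937 and 3.903 in the ON-CR group. The groups were apart, and the log2 ratio of Mt3 to Mt1 differed by -0.70 (ON-CR minus sham) (two-sided exact permutation p = 0.1, the smallest that 3 against 3 allows, 0.15 adjusted over the 3 ratios compared). Mt1 per Slc30a1 was 84.6, 80.5 and 67.3 in the sham group and 147, 194 and 148 in the ON-CR group. These groups were apart as well, with a difference in the log2 ratio of Slc30a1 to Mt1 of -1.07 (exact permutation p = 0.1, adjusted 0.15). Mt1 per Mt2 was 7.17, 7.35 and 6.44 in the sham group and 6.52, 5.63 and 5.43 in the ON-CR group. Here sham mouse 3 fell just below ON-CR mouse 4, and the difference in the log2 ratio of Mt2 to Mt1 was 0.26 (exact permutation p = 0.2, adjusted 0.2).

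**Figure D2:**
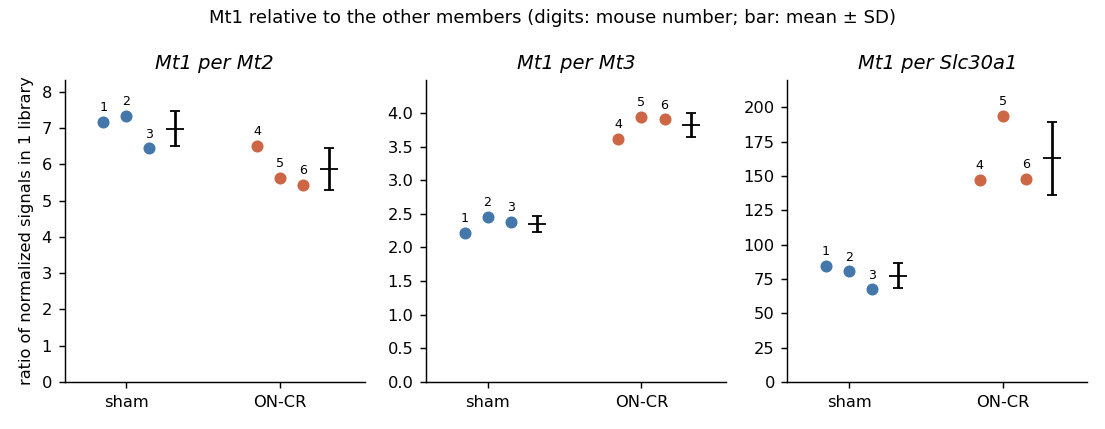
Ratio of the normalized signal of Mt1 to that of Mt2, Mt3 and Slc30a1 in the same library (linear axes from 0), each point a mouse with its number, in sham and ON-CR optic nerves, with the group mean ± SD beside the points. The ON-CR libraries sit above the sham libraries in Mt1 per Mt3 (means 3.82 and 2.35) and in Mt1 per Slc30a1 (means 163 and 77.5), while Mt1 per Mt2 overlaps.

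The genes around the cluster were not called. The 3 nearest genes of the table on each side of the cluster were Ogfod1, Gm45873 and Bbs2 before Mt3, and Nup93, Rpl10-ps5 and Gm45804 after Mt1. By limma 0 of these 6 were called (2.1% over all genes), and 0 had an unadjusted p at or under 0.05 (15.6% over all genes). With so few genes, counts of 0 cannot be told apart from these shares. Their log2 fold changes ran from -0.34 for Bbs2, a subunit of the complex that moves proteins into cilia (adjusted p = 0.393), to 0.51 for Gm45873 (adjusted p = 0.555). Bbs2 was lower and Gm45873 higher in ON-CR without overlap. Nup93, a nuclear pore protein encoded 35.5 kb downstream of the Mt1 start, was at 332 ± 27.9 (SD, n = 3) in sham and 325 ± 48.3 (SD, n = 3) in ON-CR nerves.

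**Figure D3:**
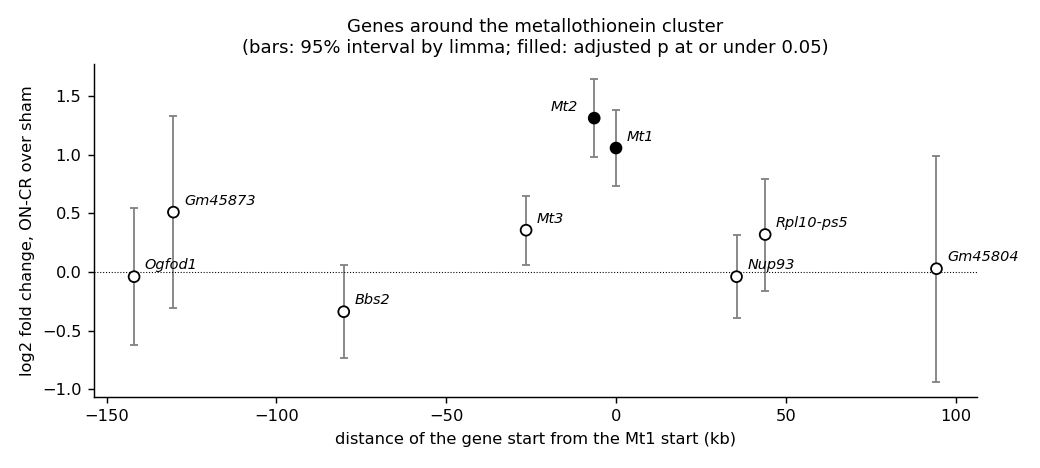
Log2 fold change (ON-CR over sham, with its 95% interval by limma) of Mt3, Mt2, Mt1 and the 3 nearest table genes on each side, against the distance in kb of each gene start from the Mt1 start, with filled points for an adjusted p at or under 0.05. Mt2 and Mt1 are the filled points, at 1.31 and 1.06, and the intervals of all 6 neighbours cross 0.

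Members of the ZnT family other than Slc30a1 were not called either. Most members of the ZnT family move zinc out of the cytoplasm, and 8 of the 10 members had a row. By limma 0 of the 8 were called (2.1% over all genes), and 1 had an unadjusted p at or under 0.05 (15.6% over all genes). Both counts are near these shares. Their median log2 fold change was 0.02, beside 0.03 over all genes. The most abundant were Slc30a9 (0.07), Slc30a4 (0.05), Slc30a6 (-0.07), Slc30a7 (0.18) and Slc30a5 (0.14), all by log2 fold change. Slc30a2, a vesicular zinc transporter named after its values were seen, was at 125 ± 11.6 (SD, n = 3) in sham and 73.1 ± 15.1 (SD, n = 3) in ON-CR nerves without overlap, a log2 fold change of -0.78 (limma adjusted p = 0.126).

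Zinc importers of the ZIP family, which bring zinc into the cytoplasm, moved in both directions. Of 14 members 13 had a row, with 1 called higher and 1 lower, while 2.1% were called over all genes. The median log2 fold change was -0.12. Slc39a14 (ZIP14), a zinc, iron and manganese importer known to respond to inflammation, was at 423, 397 and 393 in the sham group and at 1066, 560 and 1052 in the ON-CR group. All crushed mice were above all sham mice, with ON-CR mouse 5 the nearest to them. The log2 fold change was 1.08 (SE 0.23, limma adjusted p = 0.0400). Slc39a3 (ZIP3), a zinc importer, was at 544, 747 and 625 in the sham group and at 393, 282 and 334 in the ON-CR group. All crushed mice were below all sham mice, and the log2 fold change was -0.92 (SE 0.17, limma adjusted p = 0.0251). Slc39a1, Slc39a7 and Slc39a12, the most abundant ones, had log2 fold changes of -0.31, -0.12 and -0.28 without passing the test. Neither call was firm, since leaving out 1 mouse raised the adjusted p of Slc39a14 to between 0.0975 and 0.186 for each mouse except ON-CR mouse 5, and that of Slc39a3 to between 0.0510 and 0.145 for sham mice 1, 2 and 3 and ON-CR mouse 6.

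**Figure D4:**
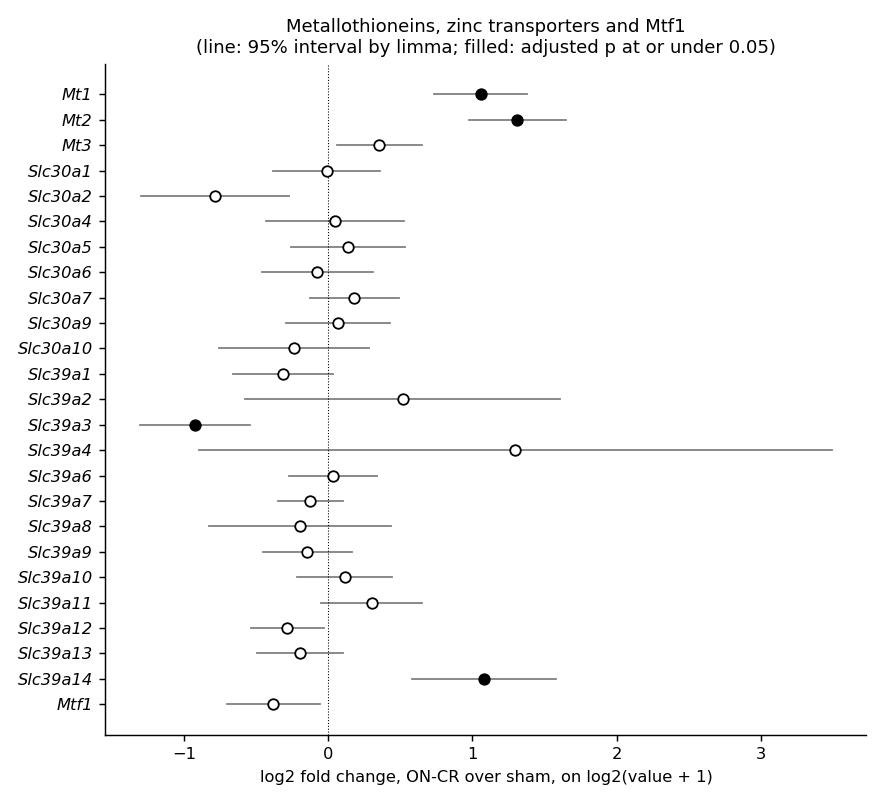
Log2 fold change (ON-CR over sham, on log2(value + 1), with its 95% interval by limma) of the 3 metallothioneins, the 8 ZnT genes, the 13 ZIP importers and the zinc sensor Mtf1, with filled points for an adjusted p at or under 0.05. Filled points are Mt1, Mt2 and Slc39a14 to the right of 0 and Slc39a3 to the left of it.

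Genes that answer metals or Mtf1 showed 1 call, while 2.1% were called over all genes. In a list of 9, all with a row, Hmox1, the heme oxygenase that is induced by heme and oxidative stress, rose from 394 ± 64.8 (SD, n = 3) to 833 ± 114 (SD, n = 3), a log2 fold change of 1.08 (SE 0.16, limma adjusted p = 0.00855, and 0.0586 without sham mouse 2). The median of the list was -0.21. Mtf1 itself was at 561, 685 and 567 in the sham group and at 529, 433 and 432 in the ON-CR group. All crushed mice were below all sham mice, with a log2 fold change of -0.38 (SE 0.14), which did not pass the test (adjusted p = 0.238). The abundant Selenow, Csrp1 and Ndrg1 had log2 fold changes of -0.23, -0.30 and -0.21, and none passed the test.

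Metallothioneins also bind copper, and of 13 copper handling genes limma called 0 (2.1% over all genes). An unadjusted p at or under 0.05 was found for 2 of them (15.6% over all genes). Both counts are near these shares, and the median log2 fold change was -0.07. Ceruloplasmin (Cp), the copper-dependent ferroxidase, was at 4176 ± 558 (SD, n = 3) in sham and 5961 ± 1186 (SD, n = 3) in ON-CR nerves (log2 fold change 0.50, adjusted p = 0.164, and 0.0222 without ON-CR mouse 5). The copper, zinc superoxide dismutase Sod1, the copper chaperones Cox17 and Atox1, and Commd1, a regulator of copper transport, had log2 fold changes of -0.25, -0.07, 0.11 and 0.03, and none passed the test.

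Glucocorticoids and cytokines of the IL-6 family are the other known inducers of Mt1 and Mt2. Of 15 glucocorticoid-induced genes 0 were called higher and 1 lower (2.1% called over all genes), with a median log2 fold change of -0.11. An unadjusted limma p at or under 0.05 was found for 5 (15.6% over all genes). Sgk1, Nfkbia, Errfi1 and Ddit4 among them were lower and Plin4 was higher, the last 3 named after their values were seen. The called gene was Sgk1, a kinase that activates ion channels. It fell from 14878 ± 279 (SD, n = 3) to 7906 ± 1223 (SD, n = 3), a log2 fold change of -0.92 (SE 0.13, limma adjusted p = 0.00709, and 0.0555 without sham mouse 2). Tsc22d3, Klf9, Nfkbia and Zbtb16, the next most abundant, had log2 fold changes of -0.39, -0.11, -0.56 and -0.06, and none passed the test. Zbtb16 varied widely within the sham group, from 950 to 2601, against 1424 to 1767 in the ON-CR group. The part of glucocorticoids or IL-6 family cytokines in the metallothionein result was not tested.

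Of 16 genes of the IL-6 family and STAT3 signalling, 3 were called higher (0.971% among all genes) and 0 lower, and the median log2 fold change was 0.81. Of the 16, 9 were above every sham library in every ON-CR library (10.5% among all genes). These included Osm, Lif, Bcl3 and Clcf1, named after their values were seen, which had low sham means (6.15, 12.1, 16.9 and 21.3) and were not called. Il6 itself had means of 1.96 in sham and 4.79 in ON-CR nerves, with overlap (limma adjusted p = 0.868). Osmr, the receptor subunit for oncostatin M, was at 288, 260 and 265 in the sham group and at 755, 590 and 982 in the ON-CR group. ON-CR mouse 5 was the lowest of the crushed mice and still clear of the sham mice, and the log2 fold change was 1.48 (SE 0.18, limma adjusted p = 0.00396). Cntf, a survival cytokine of glia, had a log2 fold change of 1.28 (SE 0.21, adjusted p = 0.0132), and Junb, an AP-1 transcription factor, of 1.69 (SE 0.31, adjusted p = 0.0248). Stat3, with 0.33 (adjusted p = 0.223), and the shared receptor subunit Il6st, with -0.03 (adjusted p = 0.941), did not pass. Without 1 mouse the Cntf call was lost (adjusted p from 0.0527 to 0.0608 without sham mice 1, 2 or 3 or ON-CR mouse 6), as was the Junb call (0.0718 to 0.115 without sham mice 1 or 2 or ON-CR mice 4 or 6).

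Astrocytes, a known source of Mt1 and Mt2, were well represented. Of 10 astrocyte markers limma called 0 (2.1% over all genes), with 5 at an unadjusted p at or under 0.05 (15.6% over all genes). Their median log2 fold change was 0.10. Their summed signal was 221845 to 271330 in sham and 292098 to 319307 in ON-CR libraries, a sum that is mostly Gfap (114862 ± 13595 and 179241 ± 23260, SD, n = 3 each, adjusted p = 0.0859). The list went both ways. Aqp4, the water channel of astrocytes, was at 17203 ± 2305 and 23116 ± 3121 (SD, n = 3 each) and Slc1a3 was also higher in ON-CR, both without overlap. Aldoc, a glycolytic enzyme, was at 44926 ± 7836 and 29147 ± 4361 (SD, n = 3 each, log2 difference -0.62) and Gjb6, a gap junction protein, at 8445 ± 248 and 6309 ± 460 (SD, n = 3 each, -0.42), both lower in ON-CR without overlap. The means of Gja1 and Slc1a2 were lower as well, with overlap. The mean log2 signal of the 10 markers differed by only 0.03 between the groups, with overlap. Against this mean in the same library, Mt1 was higher in ON-CR by 1.02 on the log2 scale, Mt2 by 1.28 and Mt3 by 0.32. Because the marker mean differed by only 0.03, these differences had to lie close to the log2 fold changes without the markers (1.06, 1.31 and 0.36). The mean joins markers that moved in opposite directions, so it does not measure astrocyte content. The part of astrocyte content in the metallothionein result was not tested. All 3 differences were without overlap, though Mt3 only narrowly (-0.62 in sham mouse 1 and -0.60 in ON-CR mouse 4). The difference for Slc30a1 was -0.04 with overlap. Against Gfap alone, Mt1 was at -2.63, -2.51 and -2.62 on the log2 scale in the sham group and at -2.17, -2.10 and -2.24 in the ON-CR group. The difference of 0.42 was thus smaller than against the 10 markers, and the groups were still apart.

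Markers of other cells moved with the groups. Of 10 oligodendrocyte markers 8 were called lower, with a median log2 fold change of -0.86 and a summed signal of 1301280 to 1857020 in sham and 635013 to 752697 in ON-CR libraries. Of 10 markers of microglia and macrophages 4 were called higher, with a median of 0.70 and a sum of 23703 to 31861 in sham and 31467 to 54380 in ON-CR libraries, which overlapped. Of these 10, 8 had a higher mean in ON-CR. Tmem119 was lower without overlap (log2 fold change -0.27) and P2ry12 was lower with overlap (-0.35), neither of them called. The part of these changes in the metallothionein result was not tested. The other lists of cell markers (endothelial, meningeal fibroblast, neuron, airway epithelium, plasma cell, erythroid, skeletal muscle, photoreceptor and keratinocyte) had 0 calls by limma, with 0 to 4 genes per list at an unadjusted p at or under 0.05. Over all genes, 2.1% were called and 15.6% had such an unadjusted p.

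The genes whose profile over the 6 libraries was nearest to that of each member were found among 14435 genes with a mean of at least 50, as the root mean square (RMS) difference of centred log2 signals. For Mt1 these included Cd109, a surface protein that binds TGF-beta (RMS 0.06), the tetraspanin Tspan4 (0.09), the early endosome GTPase Rab5c (0.11) and Rgs2, a regulator of G protein signalling (0.11). Mt2 was 16th in the order for Mt1, at 0.16. For Mt2 they were Tspan4 (0.11), the cell cycle regulator Ccnd1 (0.11), Mt1 (0.16), Cntf (0.18) and Rgs2 (0.19). Tspan4 and Rgs2 stood in both lists.

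Mt3 had other nearest genes, namely Lxn, an inhibitor of carboxypeptidases (RMS 0.04), the mitochondrial folate enzyme Mthfd1l (0.05), the transporter Slc22a4 (0.06), the astrocyte glutamate transporter Slc1a3 (0.07) and Plcl2 (0.07). Slc1a3 was at 18770, 16991 and 14465 in the sham group and at 20239, 19964 and 21726 in the ON-CR group. Sham mouse 3 was the lowest and the groups did not overlap, as with Mt3, which follows from the choice of Slc1a3 by its profile. Slc1a3 had a log2 fold change of 0.31 (limma adjusted p = 0.269). For Slc30a1 they were Nup93 (0.03), Klhl20 (0.04), the mitochondrial ribosomal gene Mrpl34 (0.04), Armt1 (0.04) and the pseudogene Mpc1-ps (0.05), whose log2 fold changes ran from -0.04 to 0.04. These orders rest on 6 libraries that share their scaling.

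The log2 fold change of Mt1 lay between 0.75 and 1.19 over 16 alternative settings and that of Mt2 between 0.91 and 1.48, and both were called in 15 of them, the exception being the 3 libraries low in Bpifa1. Mt3 was called in 0 of 16, with a lowest adjusted p of 0.0530. Slc30a1 lay between -0.13 and 0.12, with either sign, and was called in 0 of 16.

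**Figure D5:**
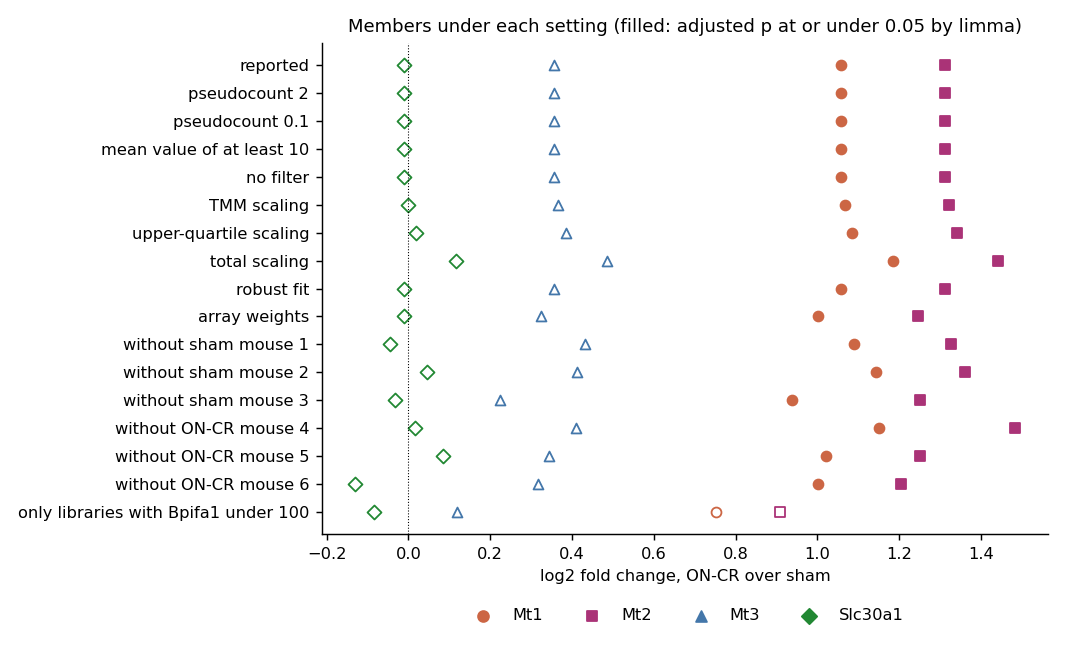
Log2 fold change (ON-CR over sham) of Mt1, Mt2, Mt3 and Slc30a1 in the reported limma test and in each of 16 alternative settings, 1 row per setting, with filled symbols for an adjusted p at or under 0.05. Mt1 and Mt2 are filled in every row except the last, which holds only the 3 libraries with Bpifa1 under 100, where they are at 0.75 and 0.91, and Slc30a1 lies on both sides of 0.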

How the data were processed

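Optic nerve libraries, 3 sham and 3 ON-CR, were grouped by their sample labels. The authors used Illumina DRAGEN for alignment and quantification, Ensembl gene models of mm10, and median normalization in Partek Flow 10.0. The deposited values are thus a normalized signal, in which each gene's estimated count was divided by 1 factor per library. Between 69.3% and 71.2% of values between 0.5 and 200 reads were whole multiples (tolerance 0.02) of the value of 1 read (0.885 to 1.06), so they were not treated as counts. Here log2(value + 1) was tested with limma 3.58.1 in R 4.3.3 (mean-variance trend, Benjamini-Hochberg adjustment over 25755 genes), after a check on simulated data. The planned minimum average of 1 removed no gene, since the lowest mean was 1.50. Fold changes on this scale understate changes of low genes. Positions and lengths are from GENCODE (GRCm38), found for 97.3% of genes, and promoter windows from RefSeq.

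The members and gene lists were chosen with earlier results of these data known. Named were the members, up to 5 genes per list (called genes first, then the most abundant), the 5 nearest profiles, cluster neighbours, and markers beside a result. Some results for genes that this rule names are left out here. Alternatives were pseudocounts, filters, scalings, fits and leaving out each mouse, and, added after seeing the data, the libraries with Bpifa1 under 100.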

Additional observations from a re-analysis of the deposited data

How the results depend on the processing

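Mt1, Mt2 and Mt3 kept their direction under all 16 alternatives, and the within-library ratios under all 8 of theirs. Leaving out each mouse in turn gave log2 fold changes of 0.938 to 1.15 for Mt1 (adjusted p 0.00707 to 0.0386 by limma), 1.20 to 1.48 for Mt2 (0.000974 to 0.0262) and 0.225 to 0.432 for Mt3. With only the libraries with Bpifa1 under 100 (sham mice 1 and 2 and ON-CR mouse 4, chosen after seeing the data), Mt1 was at 0.753 (adjusted p = 0.443) and Mt2 at 0.908 (adjusted p = 0.414), in a fit with fewer samples that called 0 genes. Slc30a1 changed sign with upper-quartile scaling (0.0175) and total scaling (0.118), and ran from -0.131 to 0.0839 when 1 mouse was left out, always far from the threshold.

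The count of called genes was 540 as reported and 123 to 894 without 1 mouse, namely 198, 123 and 270 without sham mouse 1, 2 or 3, and 161 and 894 without ON-CR mouse 6 or 5. The cause was not tested. Total scaling moved the median log2 fold change of all genes from 0.03 to 0.15 and the calls from 250 higher and 290 lower to 421 and 195, with Mt1 at 1.19 and Mt3 at 0.48. The share of higher calls was 46.3% as reported, 63.4% without sham mouse 2, and 29.7% and 56.9% with ON-CR mouse 4 or 5 left out. Dropping the filter changed nothing. No paired analysis was possible because the mice carry different numbers in the 2 groups.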
